A study of Mus musculus with 7 samples.

Results

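The mitochondrial ribosomal proteins are the nuclear-encoded proteins of the ribosome inside mitochondria, and their genes carry symbols that begin with Mrpl (large subunit) or Mrps (small subunit). They were taken as every row of the count files whose symbol was Mrpl or Mrps followed by a digit, leaving out pseudogene symbols with -ps and asking for at least 10 reads summed over the 7 libraries. This gave 76 genes of 23284 gene rows, 47 of the large and 29 of the small subunit. No matching symbol was lost to the read minimum: the lowest count of any member in any library was 449 reads and the highest was 20176. All 76 therefore entered the test across genes.

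RNA was sequenced from atrioventricular canals, a narrow segment of the early heart that joins the atrial to the ventricular chamber and is a site of valve formation, and the comparison asks what the loss of the transcription factor HAND2 changes there. Outbred NMRI mouse embryos with 18 to 23 somites were used, which the labels place at or shortly after day 9.0 of development, while the sample titles give day 9.5. The 4 Hand2 null libraries carry a deletion of all coding sequence of Hand2 on both alleles (Hand2 d/d), made by Cre recombination in the germline, so every cell of the embryo lacked it, and the 3 wild-type libraries carry no deletion. Each library is 1 pool of 4 canals. Of 4 wild-type pools planned, 1 was dropped before sequencing for poor RNA, so the wild-type libraries bear the numbers 2 to 4. The labels do not say whether pools came from separate litters, and p-values measure only the spread between these pools.

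Mitochondria translate the few proteins that their own DNA encodes, all of them core subunits of the respiratory chain and ATP synthase, on a ribosome whose RNA comes from mitochondrial DNA and whose proteins are all made in the cytosol and imported. Many of these proteins descend from bacterial ribosomal proteins, while others were gained in the mitochondrial line and surround the ancestral core. The adult heart relies heavily on oxidative phosphorylation. Inherited defects of several of these genes, among them human MRPL3, MRPL44, MRPS14 and MRPS22, cause cardiomyopathy with loss of mitochondrial translation.

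Promoters of this family are known for short motifs bound by NRF1, by ETS factors such as GABP, and by YY1, and stretches of 6 promoters are shown because they hold such motifs, or the E-box CACGTG bound by MYC, within the stretch shown. Each runs from base -100 to base -1 before the RefSeq start of the gene on its own strand, in build GRCm38.p6, and capitals mark the motif; Mrpl45 holds the NRF1 motif at 2 further places outside the stretch shown. The first 4 belong to genes that fell in null canals and the last 2, with NRF1 motifs, to genes that did not pass the test. ETS motifs also stood within this stretch in members that did not pass, such as Mrpl52, Mrps22 and Mrps26. The 6 were picked for display and do not compare the members that fell with the others.
Mrpl20: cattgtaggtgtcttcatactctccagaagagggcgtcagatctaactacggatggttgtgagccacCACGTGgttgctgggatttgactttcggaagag
Mrpl36: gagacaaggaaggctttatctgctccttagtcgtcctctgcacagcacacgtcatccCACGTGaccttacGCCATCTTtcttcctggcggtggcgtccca
Mrpl22: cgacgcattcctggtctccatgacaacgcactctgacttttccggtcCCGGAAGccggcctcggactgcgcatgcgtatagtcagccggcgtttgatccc
Mrpl3: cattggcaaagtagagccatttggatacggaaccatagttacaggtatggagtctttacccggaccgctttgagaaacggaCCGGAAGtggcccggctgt
Mrpl12: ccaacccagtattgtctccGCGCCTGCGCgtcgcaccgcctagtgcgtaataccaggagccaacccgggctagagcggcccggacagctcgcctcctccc
Mrpl45: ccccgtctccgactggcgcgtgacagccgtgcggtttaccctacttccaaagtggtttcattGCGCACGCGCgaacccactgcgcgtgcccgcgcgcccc

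The table of RefSeq promoters, 250 bases before to 50 bases after the start, matched 67 of the 76 members; Mrpl4, Mrpl13, Mrpl15, Mrpl19, Mrpl38, Mrpl54, Mrps28, Mrps34 and Mrps35 had no entry. In these 300 bases, searched on both strands, the ETS motif CCGGAAG stood in 23 of 67 members (34.3%), against 17.1% of the 11065 promoters of genes tested and 9.12% of all 27025 promoters. The YY1 motif AAGATGGC stood in 12 members (17.9%), against 4.46% and 2.88%. The NRF1 motif, shown in 1 form each in Mrpl12 and Mrpl45 above, also stood in 12 members (17.9%), against 9.99% and 4.78%. At least 1 of the 3 was present in 40 members (59.7%), against 28.2% of genes tested. These matches describe letters and not binding.

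Other motifs were near the background of genes tested. CCAAT stood in 40.3% of members against 38.8%, CACGTG in 7.46% against 10.2%, the CREB motif TGACGTCA in 2.99% against 3.2% and TATAAA in 5.97% against 7.28%. The E-box CATCTG, of a form that HAND factors can bind with a partner, stood in 6 members (8.96%) against 11.6%. Among the 11 members that fell, 4 held an ETS motif (Mrpl3, Mrpl21, Mrpl22 and Mrps12), or 36.4% against 34.3% of the 67 members. A YY1 motif stood in 4 (Mrpl36, Mrps7, Mrps11 and Mrps12), or 36.4% against 17.9%. None held the NRF1 motif, against 17.9%, and 1 held CATCTG (Mrpl36), or 9.09% against 8.96%. Shares of 11 promoters are coarse, and these differences were not tested. The capitals in Mrpl36 are 2 motifs, CACGTG and, on the other strand, AAGATGGC.

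The libraries matched their genotype labels. Hand2 was counted 7, 26, 10 and 14 times in null libraries 1 to 4 and 2123, 1224 and 1194 times in wild-type libraries 2 to 4. Reads in genes numbered 27905601 to 44860753 per library. Markers of heart muscle were abundant in every library, with a summed level of 8 genes of 32440 to 38360 CPM (reads of a gene scaled by all reads in genes) in the null pools, and 31070 to 35370 CPM in the wild-type pools. Of 14290 genes tested with edgeR, 587 (4.11%) rose and 305 (2.13%) fell in null canals at an adjusted p under 0.05. Of the 8 muscle markers, Myh7 rose (log2 fold change 0.80, edgeR adjusted p = 0.01). Tnni1 was lower without overlap between groups but did not pass (-0.33), and the groups of the others overlapped. The 3 canal muscle markers Tbx2, Tbx3 and Bmp2 summed to 148.6 to 191.6 CPM in null and 131.3 to 229.0 CPM in wild-type pools. None of the 3 passed.

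Both subunits took a smaller part of the reads in null canals. The large subunit genes held 0.4852%, 0.4535%, 0.4465% and 0.4511% of reads in genes in null libraries 1 to 4 and 0.586%, 0.6118% and 0.5582% in wild-type libraries 2 to 4. The small subunit genes held 0.2269%, 0.2123%, 0.2094% and 0.2053% in null and 0.2714%, 0.2809% and 0.256% in wild-type libraries. Every null library was below every wild-type library for both subunits, and null library 1 was the highest and wild-type library 4 the lowest of its group. The summed share was 0.673% ± 0.0268 (SD, n = 4) in null and 0.855% ± 0.0393 (SD, n = 3) in wild-type pools, 21.3% lower in null. No test was made of these sums.

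**Figure D1:**
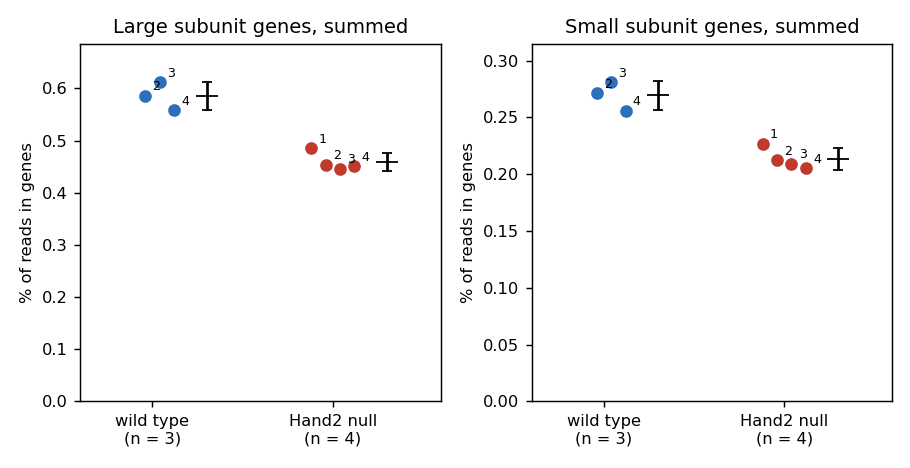
Summed reads of the 47 large subunit genes (left) and the 29 small subunit genes (right) as a percentage of reads in genes, 1 point per library with its replicate number, and the mean ± SD beside each group. Both axes start at 0, and the 4 null libraries lie below the 3 wild-type libraries in both panels.

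The balance of the subunits was steady. Large subunit reads exceeded small subunit reads 2.138, 2.137, 2.133 and 2.198 times in null libraries 1 to 4, and 2.159, 2.178 and 2.18 times in wild-type libraries 2 to 4. The groups overlapped in this ratio. In bulk tissue, fewer cells rich in these transcripts and less of them per cell cannot be told apart.

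Gene by gene, 74 of 76 members had a log2 fold change below 0, against 47.7% of all genes tested. The median was -0.39 over the large subunit and -0.37 over the small subunit, which is 23.5% and 22.8% lower in null canals, against a median of 0.02 over all genes. At an adjusted p under 0.05, at which a gene is said to be called, 7 large and 4 small subunit genes fell and none rose, against 2.13% of all genes that fell. By DESeq2, by limma-voom and at an unadjusted edgeR p under 0.05, the number that rose was also 0, against 13.5% of all genes that were higher at that unadjusted p. At an unadjusted p under 0.05, 30 large and 20 small subunit genes were lower, against 10.9% of all genes. Groups did not overlap for 53 members (33 large, 20 small), all lower in null, against 10.3% of all genes lower without overlap.

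The changes of single members were small beside what the test can find. Standard errors ran from 0.118 to 0.241 on the log2 scale, and 5 members were lower by 1.5-fold or more. A test on simulated counts recovered 26% of genes changed 1.5-fold, but those were drawn from genes of all kinds. The median standard error was 0.1375 for members and 0.2052 for all genes tested, so the share for members may differ. A member that was not called is still not shown to be unchanged. The count of calls also rested on single libraries: it ran from 1 to 12 for the large and from 0 to 7 for the small subunit when each library was left out in turn. It was 1 and 0 without wild-type library 2, the same without wild-type library 3, 3 and 0 without null library 1, 3 and 1 without null library 2, and 12 and 7 without null library 3. The medians stayed between -0.44 and -0.322 for the large and between -0.471 and -0.321 for the small subunit.

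**Figure D2:**
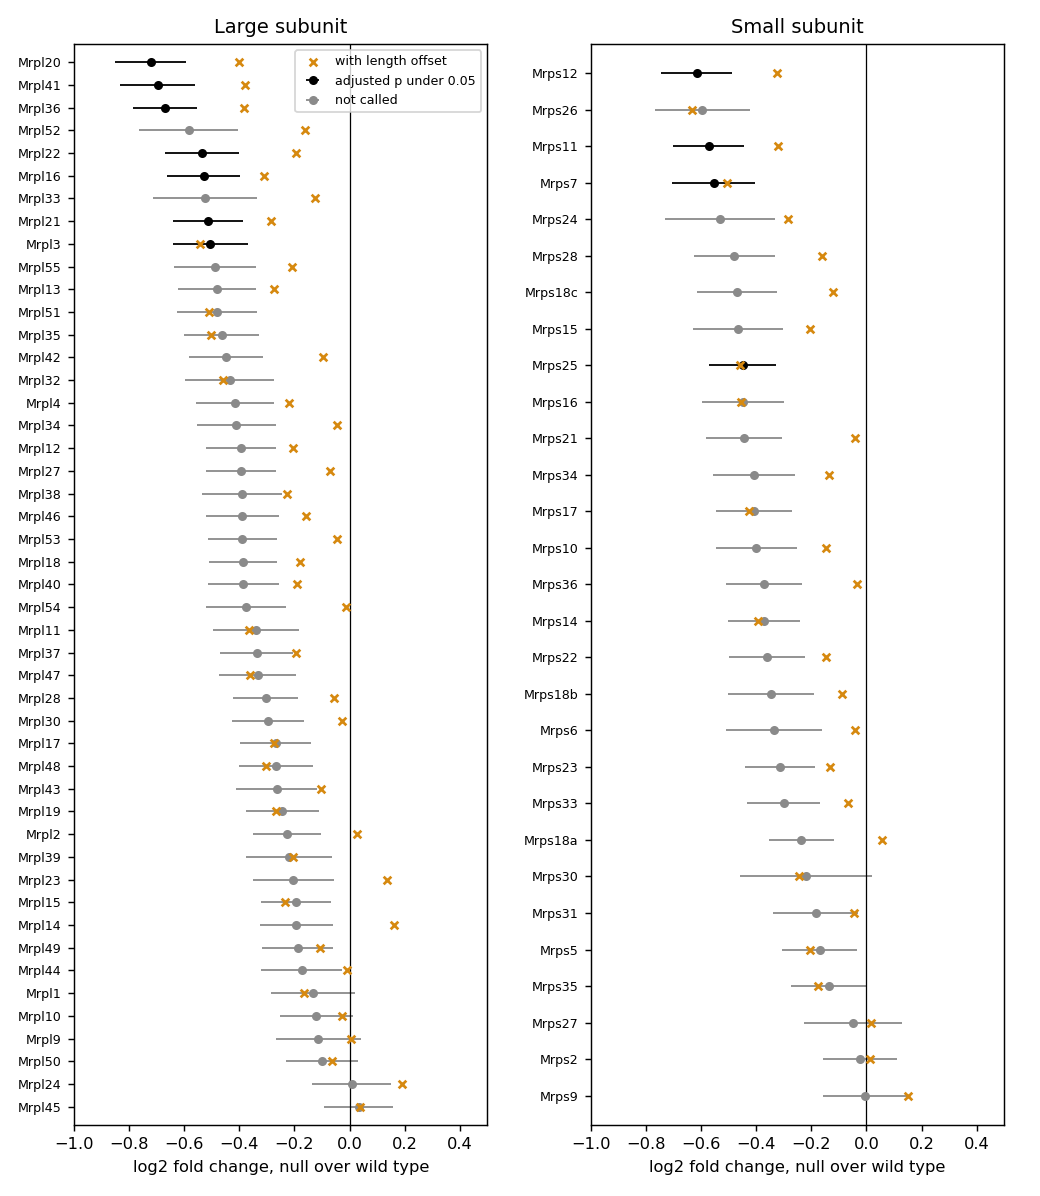
Log2 fold change of each member, null over wild type, with bars of 1 standard error, for the large (left) and small (right) subunit. Black points are the 11 genes that passed an adjusted p under 0.05, grey points the others, and crosses the value after an offset for transcript length, which lies nearer to 0 for most members.

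Short transcripts of all kinds had median fold changes below 0, and most members have short transcripts. Across all genes tested, the median log2 fold change was -0.41 for principal transcripts of up to 500 nt, -0.28 for those up to 750 nt, -0.24 up to 1000 nt and -0.15 up to 1500 nt, and it was -0.02 up to 2000 nt and 0.07 to 0.08 for all longer classes. The members are short, with a median of 1284 nt against 2981 nt for all genes tested. Lengths are those of the reference annotation, and the authors' gene models may differ.

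Among transcripts of up to 1500 nt, 47 were members, of which 8 fell and 39 were lower without overlap between groups. Of all 2256 genes of that length, 5.81% fell, 27.0% were lower without overlap and 69.2% had a log2 fold change below 0. The median was -0.39 for the members and -0.20 for all genes of that length. The 29 longer members had a median of -0.24, against 0.06 for all 11867 longer genes. Of these members 3 fell (Mrpl3, Mrps7 and Mrps25), against 1.42% of longer genes, and 14 were lower without overlap, against 7.08%. The median of the members thus lay below the median of their length class on both sides of 1500 nt. These classes follow annotated length, and a gene that does not use a long annotated end would be placed among the longer ones. Which ends the members use was not tested.

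**Figure D3:**
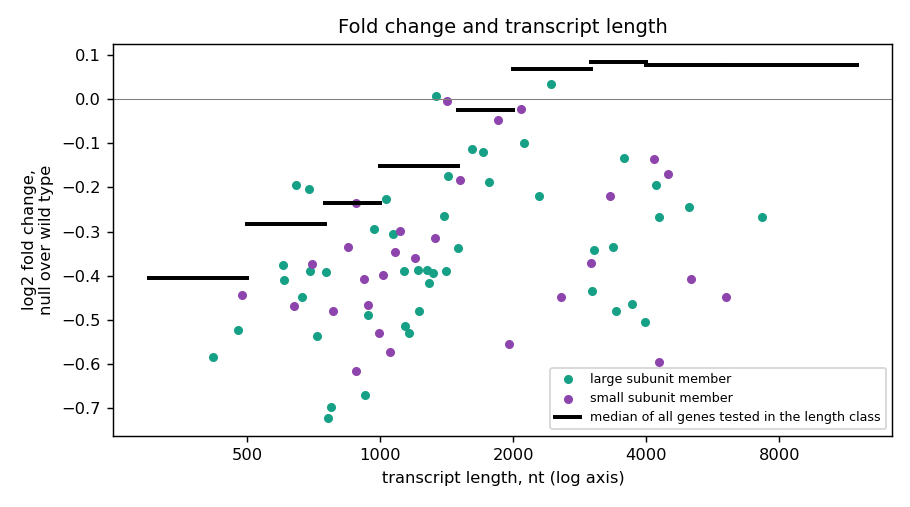
Log2 fold change of the 76 members against transcript length in nt on a log axis, null over wild type. Black bars are the medians of all genes tested in each length class, which run from -0.41 for the shortest to 0.08 for long transcripts, and most members lie under the bar of their class.

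An offset that levels length within each library, added after these values had been seen, lowered the sizes of both subunit medians. The medians became -0.19 for the large and -0.15 for the small subunit, against 0.06 over all genes, and 66 of 76 members remained below 0, against 43.9% of all genes. For the 29 members over 1500 nt the size was not lowered, with a median of -0.27 with the offset and -0.24 without. With that offset 3 members passed, all with transcripts over 1500 nt, against 1.47% of all genes that fell. They were Mrpl3 (log2 fold change -0.54, edgeR adjusted p = 0.0346), Mrps25 (-0.46, edgeR adjusted p = 0.0462) and Mrpl35 (-0.50, edgeR adjusted p = 0.0475), and the first 2 are among the 11 of the fit without it. Across the 76 members the fold change followed log2 length with r = 0.312 and Spearman's rho of 0.369, against 0.142 and 0.181 across 14123 genes, which share libraries and are not independent replicates.

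The length classes did not move alike in all libraries. Relative to the mean of all libraries, transcripts of up to 500 nt lay at a median of -0.03, -0.29, 0.05 and -0.31 (log2 CPM) in null libraries 1 to 4 and at 0.28, 0.36 and 0.12 in wild-type libraries 2 to 4. Large subunit members lay at -0.04, -0.27, -0.15 and -0.16, and at 0.21, 0.28 and 0.13. Transcripts of 1000 to 1500 nt, the class with the most members (22), lay at -0.01, -0.12, -0.05 and -0.07, and at 0.11, 0.11 and 0.07. The share of reads that aligned to several places also moved with genotype, from 9.08% to 11.64% in null libraries, and from 12.22% to 13.81% in the wild-type ones. The summed level of 5 endocardial markers, none at 0, was higher in null, at 292.7 to 331.0 CPM against 216.7 to 223.3 CPM. Of the 5, 2 passed the test (Kdr and Pecam1), and Cdh5 was higher without overlap. The other markers, Tek (log2 fold change 0.08) and Nfatc1 (-0.09), had overlapping groups. The 3 epicardial markers summed to 41.5 to 62.1 CPM against 28.8 to 39.7 CPM, none of them called. Markers of red blood cells overlapped between groups (7 genes, 2 of them at 0 in every library, 5568 to 14400 CPM in null and 9282 to 21920 CPM in wild type, 1 lower by the test). The part of these measures in the lower level of the members was not tested.

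The genes that fell most belong to the large subunit and are described with their CPM in null libraries 1 to 4 and then wild-type libraries 2 to 4. Mrpl20, whose bacterial counterpart is needed early in assembly of the large subunit, stood at 91.7, 87.3, 91.0 and 92.3 CPM in null and 138, 163 and 142 CPM in wild-type libraries (log2 fold change -0.72, SE 0.129, edgeR adjusted p = 0.00712). Mrpl41, a protein found in mitochondrial ribosomes only, stood at 88.4, 78.7, 79.5 and 78.3 CPM and 127, 144 and 119 CPM (log2 fold change -0.70, SE 0.135, edgeR adjusted p = 0.0113). Mrpl36, a very small zinc-binding protein, stood at 158, 168, 141 and 164 CPM and 249.9, 246 and 246 CPM (log2 fold change -0.67, SE 0.118, edgeR adjusted p = 0.00661). In each of these genes the 4 null libraries lay far below the 3 wild-type ones, and the lowest wild-type value of Mrpl20 was well above its highest null value. With the length offset none of them passed: Mrpl20 was -0.40, Mrpl41 -0.38 and Mrpl36 -0.38 (edgeR adjusted p = 0.0702, 0.0777 and 0.098). Without the offset, Mrpl20 and Mrpl36 passed in 6 of 7 fits with a library left out and Mrpl41 in 5. Mrpl20 missed without wild-type library 3 (edgeR adjusted p = 0.0611), Mrpl36 without wild-type library 2 (edgeR adjusted p = 0.0541), and Mrpl41 without either (edgeR adjusted p = 0.0629 and 0.085).

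The other 4 large subunit genes that fell include proteins of the exit tunnel and of the catalytic region. Mrpl22, which lines the exit tunnel, stood at 54.2, 53.4, 43.3 and 54.2 CPM in null and 71.0, 77.9 and 70.9 CPM in wild-type libraries (log2 fold change -0.54, SE 0.134, edgeR adjusted p = 0.0377). Mrpl16, which lies close to the bound tRNAs, stood at 57.0, 50.02, 51.4 and 58.4 CPM and 74.5, 74.2 and 83.3 CPM (log2 fold change -0.53, SE 0.132, edgeR adjusted p = 0.0374). Mrpl21 stood at 71.1, 67.9, 64.3 and 65.7 CPM and 101, 96.8 and 87.2 CPM (log2 fold change -0.51, SE 0.126, edgeR adjusted p = 0.0342). None of the 3 had overlapping groups, and each passed in 2 of 7 fits with a library left out. With the length offset Mrpl22 was -0.19, Mrpl16 -0.31 and Mrpl21 -0.28, and none passed (edgeR adjusted p = 0.483, 0.174 and 0.163). Mrpl3, which reaches towards the peptidyl transferase centre, stood at 37.4, 33.4, 36.0 and 35.3 CPM and 54.0, 49.6 and 46.0 CPM (log2 fold change -0.51, SE 0.136, edgeR adjusted p = 0.0491) and passed in 1 of 7, without null library 3. Its transcript is long for a member at 3972 nt, and its value with the length offset was given above.

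In the small subunit, Mrps12 fell most. It belongs to the decoding centre, where its bacterial counterpart carries streptomycin resistance mutations, and stood at 42.1, 42.8, 42.4 and 41.2 CPM in null and 64.1, 68.9 and 58.0 CPM in wild-type libraries (log2 fold change -0.62, SE 0.130, edgeR adjusted p = 0.0172). The 4 null libraries lay close together, with an SD of 0.69 CPM against 5.44 CPM in wild type. Mrps11, of the platform, stood at 44.6, 43.7, 40.01 and 48.4 CPM and 67.3, 66.7 and 60.5 CPM (log2 fold change -0.57, SE 0.130, edgeR adjusted p = 0.0246). Mrps7, of the head, stood at 42.5, 38.8, 36.2 and 43.1 CPM and 65.6, 60.5 and 48.4 CPM (log2 fold change -0.55, SE 0.149, edgeR adjusted p = 0.0489). Wild-type library 4 was the lowest of its group for both, and close to the null libraries for Mrps7. Mrps25, found only in mitochondrial ribosomes, stood at 56.3, 57.5, 53.7 and 57.0 CPM and 78.4, 76.6 and 71.7 CPM (log2 fold change -0.45, SE 0.121, edgeR adjusted p = 0.0496). Mrps12 passed in 4 of 7 fits with a library left out, Mrps11 in 3, and Mrps7 and Mrps25 in 1 each, so no member passed in all 7. With the length offset Mrps12 was -0.32, Mrps11 -0.32 and Mrps7 -0.51, and none of them passed (edgeR adjusted p = 0.132, 0.165 and 0.06).

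**Figure D4:**
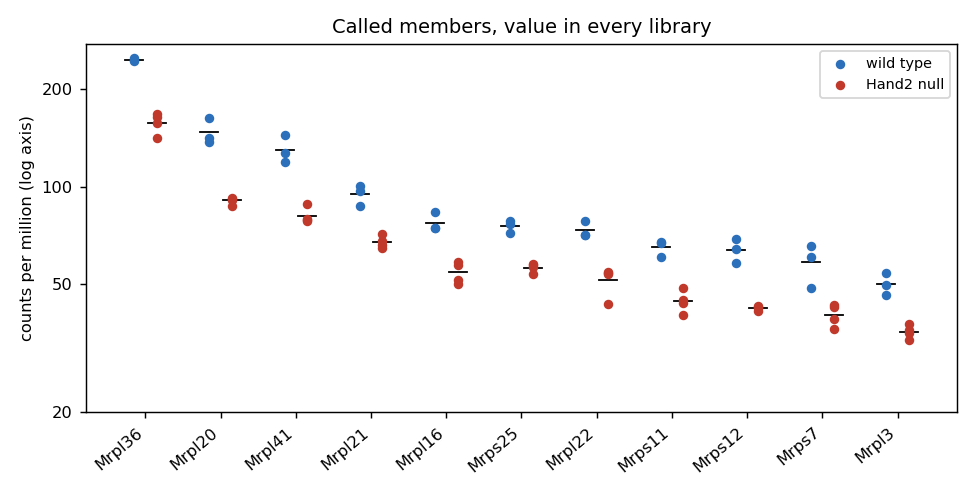
CPM of the 11 members that fell, on a log axis from 20, with 1 point per library and a line at each group mean. No gene has overlapping groups.

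Of the genes that fell, 4 share exon sequence with a gene on the other strand in the reference, and the reads carry no strand. They are Mrpl21 (with Ighmbp2), Mrpl36 (with Ndufs6), Mrps7 (with Gga3 and Mif4gd) and Mrps25 (with Nr2c2). Over the family, 17 members share exon sequence with another protein-coding gene, and how the counting treated such reads is not given in the sources used here. Members just past the threshold were Mrpl13, Mrps26 and Mrpl35, with edgeR adjusted p = 0.063, 0.0635 and 0.0658, chosen here after their values were seen.

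Several members without a call had fold changes as far below 0 as those with one. Mrps26 had the second lowest of the small subunit and stood at 19.7, 17.0, 21.1 and 18.0 CPM in null and 31.3, 31.0 and 22.5 CPM in wild-type libraries (log2 fold change -0.59, SE 0.174, edgeR adjusted p = 0.0635). Mrpl52, a mitochondria-specific protein with the shortest transcript at 418 nt, stood at 87.3, 66.1, 98.7 and 75.7 CPM and 116, 143 and 106 CPM (log2 fold change -0.58, SE 0.180, edgeR adjusted p = 0.074). Mrpl33 stood at 151, 116, 171 and 125 CPM and 168, 245 and 188 CPM (log2 fold change -0.52, SE 0.189, edgeR adjusted p = 0.115). The groups of Mrpl33 overlapped, and those of Mrpl52 and Mrps26 did not.

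A few members had log2 fold changes near 0 or slightly above. Mrpl45, which resembles the import protein TIM44 and tethers the ribosome to the inner membrane, stood at 169, 170.4, 141 and 149 CPM in null and 153, 149.6 and 153 CPM in wild-type libraries (log2 fold change 0.03, SE 0.125, edgeR adjusted p = 0.904). Mrpl24 stood at 42.3, 40, 35.2 and 34.1 CPM and 37.1, 39.4 and 35.2 CPM (log2 fold change 0.01, SE 0.143). These were the 2 members above 0, and both turned in other settings: Mrpl45 was -0.03 without null library 1, and Mrpl24 was -0.01 under 2 other scalings and under DESeq2. In the small subunit, Mrps9 (-0.01, SE 0.153; 0.01 with library totals alone), Mrps2 (-0.02, SE 0.134) and the pentatricopeptide repeat protein gene Mrps27 (-0.05, SE 0.176) lay nearest to 0. Their groups overlapped, and so did those of Mrpl50 (-0.10, SE 0.131), Mrpl9 (-0.11, SE 0.154) and Mrps35 (-0.14, SE 0.138).

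The stalk of the large subunit, which recruits translation factors, showed no call. Mrpl12, which also binds the mitochondrial RNA polymerase, stood at 207, 184, 183 and 202 CPM in null and 259, 259.6 and 236 CPM in wild-type libraries (log2 fold change -0.39, SE 0.126, edgeR adjusted p = 0.0832). Mrpl11, near the base of the stalk, stood at 115, 82.3, 107 and 109.5 CPM and 125, 139.7 and 125 CPM (log2 fold change -0.34, SE 0.156). Groups did not overlap for these 2, whereas those of Mrpl10, the stem of the stalk, did overlap (-0.12, SE 0.133).

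Of the 4 genes of human cardiomyopathy, Mrpl3 fell and the other 3 did not pass. Mrps14 stood at 194, 186, 164 and 168 CPM in null and 229, 245 and 207 CPM in wild-type libraries (log2 fold change -0.37, SE 0.131, edgeR adjusted p = 0.11). Mrps22 stood at 36.8, 35.2, 34.2 and 31.5 CPM and 43.5, 46.9 and 40.5 CPM (log2 fold change -0.36, SE 0.138, edgeR adjusted p = 0.134). Mrpl44 stood at 54.4, 66.6, 47.6 and 69.2 CPM and 71.8, 62.0 and 64.3 CPM (log2 fold change -0.17, SE 0.146, edgeR adjusted p = 0.501). The groups were apart for Mrps14 and Mrps22 and overlapped for Mrpl44.

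The 3 paralogues Mrps18a, Mrps18b and Mrps18c descend from 1 bacterial protein, and Mrps18a, like Mrps30, sits in the large subunit despite its symbol. Their log2 fold changes were -0.24 (SE 0.118) for Mrps18a, -0.35 (SE 0.157) for Mrps18b and -0.47 (SE 0.146) for Mrps18c, none of them called. With the length offset Mrps18a was 0.05, so its direction turned. Counting Mrps18a and Mrps30 with the large subunit left 7 called genes of 49 there and 4 of 27 in the small subunit. Mrps36, counted here by its symbol, is a part of the 2-oxoglutarate dehydrogenase complex and stood at -0.37 (SE 0.138).

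Genes for proteins of bacterial descent and for those gained by mitochondria had similar medians. The 48 genes of bacterial type had a median of -0.40, with 9 called, and the 27 found only in mitochondrial ribosomes a median of -0.34, with 2 called (Mrpl41 and Mrps25), against 2.13% of all genes that fell. The difference between these classes was not tested, and the median transcript length was 1150 nt in the first and 1424 nt in the second.

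Levels can be compared between genes only per length, so CPM per kb of the principal transcript was used for their order in wild-type canals. It was highest for Mrpl42 (688.5 CPM per kb), Mrps21 (537.4), Mrpl33 (419.5), Mrpl18 (371.2), Mrpl52 (291.1) and Mrps36 (272.2), followed by Mrpl36 (267.9), Mrps18c (261.2) and Mrps33 (260.0). It was lowest for Mrps30 (6.22), Mrps26 (6.61), Mrps25 (12.4), Mrpl3 (12.6), Mrps35 (13.4) and Mrpl47 (15.7). A long annotated end lowers this value for a gene that does not use it. Of the highest, Mrpl42 (log2 fold change -0.45, SE 0.135), Mrps21 (-0.44, SE 0.138) and Mrpl18 (-0.39, SE 0.125) were not called and Mrpl36 was. Of the lowest, Mrpl3 and Mrps25 were called, and Mrps30, Mrps26, Mrps35 and Mrpl47 were not. Across members the fold change and log2 CPM per kb in wild type were related with r = -0.323 and rho of -0.338, and with -0.262 and -0.227 across 14123 genes; both measures use the same wild-type libraries.

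The genes that work with the mitochondrial ribosome had a median fold change close to 0. Of 84 listed genes of mitochondrial translation and its upkeep, all tested, 1 fell and none rose, against 2.13% and 4.11% of all genes. At an unadjusted p under 0.05, 9 were lower and 6 higher (10.9% and 13.5% of all genes), and DESeq2 called 5. The median was -0.05, with 47 of 84 below 0. Groups were apart for 15 lower and 6 higher genes, against 10.3% and 11.6% of all genes. Their transcripts are longer than those of the members, with a median of 2463 nt.

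**Figure D5:**
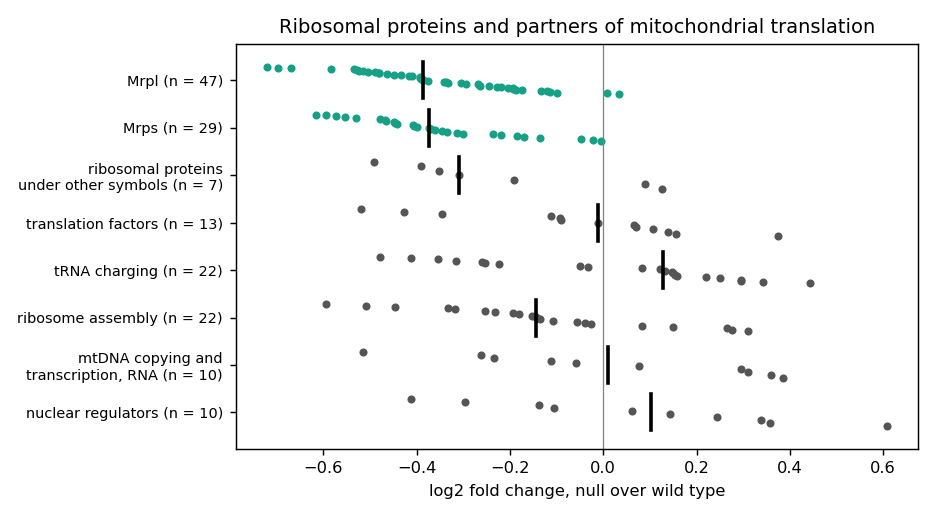
Log2 fold change, null over wild type, of the members by subunit (green) and of the partner genes by role (grey), 1 point per gene, with a bar at each median. The medians are -0.39 and -0.37 for the subunits and lie between -0.31 and 0.13 for the 6 roles.

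The 7 ribosomal proteins that bear other symbols came closest to the members, with a median of -0.31. Mrp63 (-0.49, SE 0.143, edgeR adjusted p = 0.0625), Ict1 (-0.39, SE 0.133, edgeR adjusted p = 0.101), the release factor relative built into the large subunit, Gadd45gip1 (-0.35, SE 0.191) and Chchd1 (-0.31, SE 0.172) had groups that did not overlap. Dap3 (0.13, SE 0.142) and the pentatricopeptide repeat protein Ptcd3 (0.09, SE 0.177), both of the small subunit, lay above 0. None of the 7 was called. Chchd1, with a transcript of 616 nt, turned to 0.03 with the length offset.

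The assembly factors held the gene that fell. Mpv17l2, an inner membrane protein needed for ribosome assembly, stood at 8.73, 9.71, 9.94 and 10.3 CPM in null and 14.8, 14.5 and 13.9 CPM in wild-type libraries (log2 fold change -0.59, SE 0.156, edgeR adjusted p = 0.0447). The groups were apart, but the call held in 1 of 7 fits with a library left out (without null library 3), and it was lost with library totals alone, with no filter on low counts, with a GC offset, with the length offset, with the replicate number as a block and without null library 2 and wild-type library 4 together (edgeR adjusted p = 0.0529, 0.0627, 0.1, 0.235, 0.0647 and 0.131). The other 21 assembly genes did not pass, and the median of the role was -0.14.

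Translation factors had a median of -0.01, with Tufm, the elongation factor that brings tRNA to the ribosome, at 131, 107, 114 and 142 CPM in null and 124, 132 and 135 CPM in wild-type libraries (-0.09, SE 0.143), and the membrane insertase Oxa1l at 0.11 (SE 0.148). Tsfm, the nucleotide exchange partner of Tufm, was at -0.43 (SE 0.135, edgeR adjusted p = 0.0796). The tRNA synthetases had a median of 0.13 and none was called. Kars, which serves cytosol and mitochondria, stood at 316, 297, 207 and 385 CPM and 276, 220.0 and 310.1 CPM (0.15, SE 0.191). Lars2 was counted at 4631 to 10050 CPM, far above every other synthetase of the list, so its level is uncertain here (-0.05, SE 0.223).

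Genes that copy and transcribe mitochondrial DNA and handle its RNA had a median of 0.01. Tfam, the packaging and transcription factor, stood at 75.7, 66.5, 70.6 and 71.4 CPM in null and 73.5, 77.8 and 76.6 CPM in wild-type libraries (-0.11, SE 0.129), and its groups overlapped. The row 1810035L17Rik was at -0.52 (SE 0.167, edgeR adjusted p = 0.086). The nuclear regulators had a median of 0.10 without a call. The coactivator Ppargc1a stood at 70.4, 73.3, 89.2 and 68.2 CPM in null and 57.3, 62.4 and 56.9 CPM in wild-type libraries (log2 fold change 0.34, SE 0.146, edgeR adjusted p = 0.18), and Mycn at -0.11 (SE 0.197). Myc, which raises ribosome genes in many cells, was higher without overlap, at 35.2, 41.7, 36.4 and 37.6 CPM and 23.6, 18.5 and 31.3 CPM (log2 fold change 0.61, SE 0.172, edgeR adjusted p = 0.0572); it was singled out after its values were seen, and with the length offset its value was 0.78 (edgeR adjusted p = 0.029), a fit in which 4.31% of all genes rose.

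Other lists of mitochondrial and ribosomal genes also had medians below 0. A list of 82 nuclear-encoded genes of the respiratory chain and ATP synthase, taken by symbol alone, had a median of -0.35 and 863 nt. By the test 3 were lower and 2 higher, against 2.13% and 4.11% of all genes. Log2 fold changes of these respiratory chain genes reached 3.88, and mean wild-type levels went down to 2.17 CPM. The 20 genes of the Timm and Tomm import channels had a median of -0.44 and 1542 nt, with 3 lower. Cytosolic ribosomal proteins were taken by symbol alone, Rpl or Rps and a digit, which gave 89 genes. These Rpl and Rps genes had a median of -0.19 and 937 nt, with 3 lower. Other genes whose symbols share these letters were not excluded. Lengths in this list reached 7244 nt, and mean wild-type levels went down to 0.874 CPM. The share lower without overlap was 69.7% for the mitochondrial ribosomal genes and 70.0% for the import genes. It was 57.3% for the respiratory chain genes and 6.74% for the Rpl and Rps genes. Of all genes tested 10.3% were lower without overlap, and of those with transcripts of up to 1500 nt 27.0%. With the length offset the medians were -0.07 for the respiratory chain genes, -0.26 for the import genes and 0.03 for the Rpl and Rps genes. The median over all genes was 0.06 in that fit. The differences between lists were not tested.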

How the data were processed

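The authors deposited read counts per gene, as whole numbers for 23284 gene symbols. The submitters' processing notes name the build mm9 and the tools HTSeq, SAMtools and TopHat2 (version 2.0.13), with no annotation or counting mode. Per the labels' protocols, RNA was freed of ribosomal RNA and passed through a low-input cDNA kit with 8 PCR cycles, and reads were single, 50 nt long and without strand. Reads are not independent molecules, so precision from counts covers counting error only.

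The 5 summary lines of each file entered neither library sizes nor tests: 7.31% to 14.2% of counted reads lay in no gene, 1.46% to 1.69% in several genes and 9.08% to 13.8% aligned to several places. CPM are counts scaled to the total of reads in genes. Fold changes and p-values come from edgeR 4.0.16 in R 4.3.3, by its quasi-likelihood test, with TMM, the default filter, genotype as the only term, 5 residual degrees of freedom and Benjamini-Hochberg adjustment over 14290 genes; the SE was taken from the fold change and the root of F. Alternatives used DESeq2 1.42.0, limma 3.58.1 (voom), other scalings and filters, a replicate block, loess offsets (span 0.3) on GC content or transcript length, and libraries left out. Lengths and exon overlaps come from GENCODE gene models and promoters from RefSeq, both on GRCm38, so no coordinates are printed. On simulated counts with 14109 genes tested, 72% of genes changed 2-fold and 98% of those changed 4-fold were recovered, and 5 of 104 calls were false.

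Members, lists, rules and tests were chosen with earlier results of these data known. The named members are all called ones, the 4 largest changes in each direction and the 4 highest and 2 lowest levels per length in each subunit, and a preset group (cardiomyopathy genes, stalk, decoding centre, membrane contact, Mrps18 paralogues), 38 in all; the named partners are called genes or, where a role has none, its 2 most abundant, 11 in all. Genes outside this rule, such as Mrp63, Ict1, Gadd45gip1, Dap3, Tsfm and Myc, were picked after their values were seen.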

Additional observations from a re-analysis of the deposited data

Results flagged for a closer look

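Among the 4 null libraries, 1 value lay far from the other 3 for 4 of 51 values examined, by Dixon's test of the gap to the nearest value over the range; chance gives this for about 1 in 20 groups. Mrpl41 stood at 88.4 CPM in null library 1 and at 78.28 to 79.53 CPM in the others. Mrpl22 stood at 43.29 CPM in null library 3 and at 53.43 to 54.2 CPM in the others. Mrps21, at 163.4 CPM against 202.6 to 210.0 CPM, and Mrps33, at 203.9 CPM against 246.7 to 248.9 CPM, were low in null library 4. Each of these values was still below all 3 wild-type libraries.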

How the results depend on the processing

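The number of pools, 7, limits what can be said of single genes. In place of 7 large, 4 small and 1 partner gene called, DESeq2 called 19, 9 and 5. Library totals alone gave 2 small subunit genes and 0 partners, no filter the same 2 and 0, limma-voom 2 and 2, upper-quartile scaling 2 partners and a GC-content offset 0 partners. Without null library 2 and wild-type library 4 together, 3, 0 and 0 were called. The length offset gave 2 large and 1 small, with medians of -0.192 and -0.147. With each library left out in turn, calls ran from 1 to 12, 0 to 7 and 0 to 5, and the medians from -0.44 to -0.322 for the large subunit, lowest without null library 1, and -0.471 to -0.321 for the small subunit, lowest without wild-type library 4. The cause of these shifts was not tested.

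The replicate numbers 2 to 4 occur in both genotypes, and same-numbered libraries correlated at -0.073, 0.257 and 0.166 in their deviations. Null libraries 3 and 4 correlated best with the wild-type library of their own number. Null library 2 did so with wild-type library 4, at 0.137. Whether the numbers pair the pools cannot be told from these values, and the main fit leaves them out. With the replicate number as a block, 15 large, 10 small and 4 partner genes were called.

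Among the named genes, directions turned in these alternatives. With the length offset Mrps9 was 0.15, Mrps18a 0.05, Chchd1 0.03, Mrps27 0.02, Mrps2 0.01, Tufm 0.01 and Mrpl9 0.00491. Mrpl24 was -0.01 with DESeq2 size factors, upper-quartile scaling and DESeq2, -0.07 with the block, and -0.04 without null library 2 and wild-type library 4 together. Mrpl45 was -0.02 with the block. Mrps9 was 0.01 with library totals, 0.00178 with the GC offset and 0.1 without both libraries, where Mrps27 was 0.11 and Tufm 0.01. With each library left out in turn, values ran from -0.08 to 0.06 for Mrpl24, -0.03 to 0.07 for Mrpl45, -0.11 to 0.07 for Mrps9, -0.09 to 0.02 for Mrps2, -0.15 to 0.07 for Mrps27, -0.22 to 0.04 for Mycn, -0.03 to 0.23 for Ptcd3 and -0.25 to 0.12 for Lars2. Of the 11 called members, 0 changed direction in any alternative, while calls were lost in 44 of 77 fits with a library left out and in 27 of 132 others.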
